A study of Mus musculus with 30 samples.

Results

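The neuronal cytoskeleton and Elavl genes described here were 10 genes: Map2, Dcx, Mapt and Tubb3, whose products form or bind microtubules; Nefl, Nefm and Ina, subunits of neuronal intermediate filaments; Gap43, a growth cone protein; and Elavl3 and Elavl4, neuronal RNA-binding proteins. Their members were every probe set whose annotation named one of these genes and no other, 30 probe sets among the 36701 measured, and the 10 genes stood among 15964 genes named in this way. RNA of mouse embryonic stem (ES) cells and of neural aggregates grown from them was hybridised to the 3 Affymetrix U74 version 2 chips in 10 samples, 30 arrays in all. All samples came from 1 line of 129-derived ES cells that carried GFP at Sox1, a gene switched on in early neuroectoderm. Aggregates were serum-free floating cultures kept in a medium poor in growth factors (SFEB culture), and each aggregate sample was the only one of its day and sort.

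The aggregate cells sorted as Sox1-positive comprised 1 sample each of days 3, 4 and 5. The other aggregate samples comprised day 1 aggregates with no sort named, E-cadherin-negative cells of day 2, E-cadherin-positive cells of day 2 and Sox1-negative cells of day 3, 1 sample each. They were set against 3 samples of undifferentiated ES cells sorted as E-cadherin-positive. Nothing in the labels says that the ES samples were separate cultures, so the p-values speak only of how these samples scatter, which may be technical. The Sox1-positive samples differed in day, so their spread also held any change with day.

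The sort and the state of the cells were checked first. Sox1 read 308, 310 and 252 intensity units in Sox1-positive cells of days 3, 4 and 5. It read 151.6 to 253 in the other aggregate samples and 138.1 to 172.5 in ES cells. It thus separated Sox1-positive from ES cells but not from every other aggregate sample. E-cadherin-positive and E-cadherin-negative cells of day 2, at 253 and 251 units, stood at the day 5 level, and Sox1-negative cells of day 3 read 241. Pou5f1, which encodes the pluripotency factor Oct4, fell to 3139, 2203 and 575 units in Sox1-positive cells of days 3, 4 and 5, against 6836 to 8778 in ES cells. Cdh1, the gene of E-cadherin, read 565 units in E-cadherin-negative and 572 in E-cadherin-positive cells of day 2. Summed over 8 neuroectoderm markers the signal was 16547 to 19519 in Sox1-positive cells, 9528 to 14213 in the other aggregate samples and 9118 to 10348 in ES cells. Summed over the 4 neuron markers that are not among the 10 genes (Stmn2, Rbfox3, Snap25 and Syp), it was 1407 to 1972 in Sox1-positive cells, 753 to 1749 in the other aggregate samples and 1224 to 1976 in ES cells, and Snap25 and Syp lay under the filter on low signals. The groups overlapped in that neuron sum, whose part in the results below was not tested. In bulk RNA, more cells of a type and more RNA per cell cannot be told apart.

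Neurons carry a cytoskeleton of their own. Microtubules built in part from the neuronal beta-tubulin encoded by Tubb3 are bundled and stabilised by Map2 in cell bodies and dendrites, by tau (Mapt) mainly in axons, and by doublecortin (Dcx) in migrating and newly born neurons. Neurofilaments, assembled from light (Nefl) and medium (Nefm) subunits and from alpha-internexin (Ina), fill axons and set their calibre, and Gap43 sits under the membrane of the growing axon tip. Elavl3 (HuC) and Elavl4 (HuD) bind AU-rich elements of mRNAs and are among the first proteins that mark a cell as a neuron.

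The promoters of 4 of these genes are shown because the genes differ in how closely they moved together: Elavl4, Map2 and Dcx were high in the same pair of samples, and Elavl3 in part so. Sequences are from RefSeq (GRCm38.p6), from 250 bases before to 50 bases after a transcription start, written 5′ to 3′ on the strand of the gene. Capitals mark the motifs CAGCTG and CAGATG (E-boxes of the kind that proneural factors can bind) and TATAAA, each searched on both strands, with no motif overlapping another. Elavl4 lies at chr4:110287462-110287761 (minus strand), Elavl3 at chr9:22051974-22052273 (minus), Map2 at chr1:66175079-66175378 (plus) and Dcx at chrX:143933170-143933469 (minus).
Elavl4: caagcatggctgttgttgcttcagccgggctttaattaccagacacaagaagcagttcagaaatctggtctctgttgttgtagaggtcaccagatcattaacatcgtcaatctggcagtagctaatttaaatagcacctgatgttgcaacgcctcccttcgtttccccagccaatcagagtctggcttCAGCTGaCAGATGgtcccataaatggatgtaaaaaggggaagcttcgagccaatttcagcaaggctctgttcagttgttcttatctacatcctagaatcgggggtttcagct
Elavl3: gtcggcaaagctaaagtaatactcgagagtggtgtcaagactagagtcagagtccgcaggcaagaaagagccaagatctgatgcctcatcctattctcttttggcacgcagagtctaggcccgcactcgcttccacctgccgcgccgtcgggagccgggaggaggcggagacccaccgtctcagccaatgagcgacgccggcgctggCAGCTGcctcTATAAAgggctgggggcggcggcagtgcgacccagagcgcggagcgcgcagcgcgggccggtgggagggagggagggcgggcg
Map2: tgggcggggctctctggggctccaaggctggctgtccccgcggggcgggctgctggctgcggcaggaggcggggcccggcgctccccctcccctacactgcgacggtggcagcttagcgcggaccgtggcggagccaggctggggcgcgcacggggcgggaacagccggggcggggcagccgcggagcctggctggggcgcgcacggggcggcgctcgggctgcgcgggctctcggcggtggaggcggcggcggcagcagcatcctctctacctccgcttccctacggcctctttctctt
Dcx: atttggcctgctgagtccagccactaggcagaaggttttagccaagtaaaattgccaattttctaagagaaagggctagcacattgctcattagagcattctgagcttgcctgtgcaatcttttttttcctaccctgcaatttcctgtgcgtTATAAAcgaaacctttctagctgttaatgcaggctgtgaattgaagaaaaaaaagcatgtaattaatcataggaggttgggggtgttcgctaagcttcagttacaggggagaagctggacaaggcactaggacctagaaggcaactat
In the Elavl4 window CAGCTG and CAGATG stood 1 base apart, starting 62 and 55 bases before the start. Elavl3 held CAGCTG at 43 and TATAAA at 33 bases before the start, and Dcx held TATAAA at 98 bases before it. The Map2 window held none of the 3 motifs. Of 32851 mouse promoters of the same 300 bases, 16.3% held CAGCTG, 17.2% CAGATG and 13.6% TATAAA, so each of these matches is common. CACGTG was searched too and stood in no window of these genes, against 7.15% of all promoters. RefSeq held 4 starts of Elavl4, and the one printed was chosen with its motifs in view. A start close upstream shared most of that window and both motifs, another held CAGATG alone, and the farthest, at chr4:110351862-110352161, held none of the 3. The windows of Map2 and Elavl3 had 37 and 29 CpG and those of both Dcx starts 3 each, against a median of 7 over all promoters. Those of the Elavl4 starts had 4, 5, 6 and 23, so its composition depended on the start. Windows were also on hand for Ina, which held CAGCTG 135 bases before the start, and for Tubb3, which held none of the 3. Nefl, Nefm, Gap43 and Mapt are given by name.

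Of the 30 probe sets, 25 reached the filter on low signals (a mean over the 10 samples at or above the 30th percentile of the chip) and were tested. The 5 that did not were 97760_at and 111562_at of Map2, 164683_r_at of Nefm, 164807_at of Mapt and 92239_at of Elavl3. The filter used all 10 samples, so a probe set high in 1 group could pass through that group. Left without the ES samples, the mean of Mapt 102431_at lay under the filter value. So did that of Nefl 103575_at without the Sox1-positive samples, and those of Elavl4 92361_at and Nefm 92346_at without the day 5 sample. Differences were tested with limma on log2(intensity + 16), on which weak signals show less than their full change, and a probe set was called where its p-value, Benjamini-Hochberg adjusted over all 25690 tested probe sets, was under 0.05. Against ES cells, Sox1-positive cells had 4 of the 25 probe sets called higher and 2 called lower, against 5.71% and 4.84% of all tested probe sets. Without ES sample 1, 2 or 3 those called higher numbered 2, 2 and 1, and those called lower numbered 0 without ES sample 2 or day 4 and 1 without ES sample 3 or day 3. The shares of all tested probe sets fell as well, to 4.66%, 2.58% and 3.72% called higher without ES sample 1, 2 and 3, and to 2.21% and 2.53% called lower without ES sample 2 and day 4. The 4 were those of Nefm (117269_at), Elavl4 (163986_at), Map2 (114119_at) and Nefl (103575_at), and the 2 were both of Mapt (102431_at and 102742_g_at). In 9 of the 25 every Sox1-positive sample lay above every ES sample, and in 3 every one lay below, against 15.4% and 15.1% of all tested probe sets.

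Map2, the microtubule-binding protein of dendrites, read 346, 430 and 1576 units in Sox1-positive cells of days 3, 4 and 5 with probe set 114119_at. It read 205, 792, 222 and 221 units in day 1, day 2 E-cadherin-negative, day 2 E-cadherin-positive and day 3 Sox1-negative samples, and 120, 126 and 168 in the ES samples. All 7 aggregate samples lay above all 3 ES samples, with day 5 highest and E-cadherin-negative cells of day 2 next. The log2 difference of Sox1-positive minus ES cells was 2.06 ± 0.51 (SE, n = 3 each), with an adjusted p of 0.0420 in limma, and it was lost without any one ES sample, without day 4 Sox1-positive cells or with no filter, where the adjusted p reached 0.128. The weak probe set 97760_at, which was not tested, had 50.4, 54.3 and 78.5 units in the Sox1-positive samples, against 11.5 to 35.5 in the other aggregate samples and 11.9 to 48.2 in ES cells. The third, 111562_at, had 7.09 to 54.1 units in Sox1-positive cells and 27.5 to 53.3 in ES cells and showed no such order.

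Dcx, the microtubule-binding protein of migrating neurons, had 1 probe set. It read 111.2, 136.8 and 552 units in Sox1-positive cells of days 3, 4 and 5, against 84.7, 65.4 and 17.6 in the ES samples. In the other aggregate samples it read 122 units on day 1, 357 in E-cadherin-negative and 61.4 in E-cadherin-positive cells of day 2, and 98.5 in Sox1-negative cells of day 3. The Sox1-positive and ES samples did not overlap, while the values of day 1 and of Sox1-negative cells lay close to the Sox1-positive cells of day 3. Its difference from ES cells, 1.78 ± 0.60 (SE, n = 3 each; 95% interval 0.38 to 3.17), did not pass (limma, adjusted p = 0.109).

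Nefm, the medium neurofilament subunit, read 803, 400 and 1564 units in Sox1-positive cells of days 3, 4 and 5 with 117269_at, against 78.0, 117.9 and 124.9 in the ES samples. The other aggregate samples read 292 on day 1, 1111 and 209 in E-cadherin-negative and E-cadherin-positive cells of day 2, and 144 in Sox1-negative cells of day 3. With this probe set every aggregate sample exceeded every ES sample. The difference was 2.75 ± 0.45 (SE, n = 3 each; adjusted p = 0.00914 in limma), a 6.72-fold rise, and it was called under all 17 alternatives, with a highest adjusted p of 0.0360. The second probe set, 92346_at, was weaker: it had 73.4 to 359 units in Sox1-positive cells against 42.3 to 69.7 in ES cells, and the difference of 1.18 ± 0.50 did not pass (adjusted p = 0.187, limma). With 92346_at the other aggregate samples overlapped the ES samples. They read 30.85 on day 1, 169.5 and 83.7 in E-cadherin-negative and E-cadherin-positive cells of day 2, and 42.5 in Sox1-negative cells of day 3. The third, 164683_r_at, had 9.80 to 21.6 units over all samples.

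Nefl, the light subunit, was measured by 3 probe sets that differed in their pattern. With 162973_at it read 475, 417 and 1431 units in Sox1-positive cells of days 3, 4 and 5, against 181, 205 and 226 in the ES samples, and 275 to 721 in the other aggregate samples. Again no aggregate sample overlapped the ES samples, yet the difference of 1.62 ± 0.43 narrowly missed the threshold (limma, adjusted p = 0.0522). The dimmer 103575_at read 133.7, 101.5 and 131.1 units in Sox1-positive cells against 49.5, 61.5 and 56.2 in ES cells, and its smaller difference of 0.94 ± 0.18 passed (limma, adjusted p = 0.0157, lost without ES sample 3). Probe set 169816_i_at, whose suffix marks an incomplete set of probes, read 374 to 468 units in Sox1-positive cells and 243.5 to 613 in ES cells, and its difference was 0.22 ± 0.38 (SE). Nefl and Nefm are neighbours on mouse chromosome 14 with no other protein-coding gene between them in RefSeq, and across the 10 samples the log2 values of 162973_at and 117269_at had a Pearson r of 0.88. That value is a description: the points share arrays, and without day 5 Sox1-positive and day 2 E-cadherin-negative cells r was 0.72 over 8 samples.

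**Figure D1:**
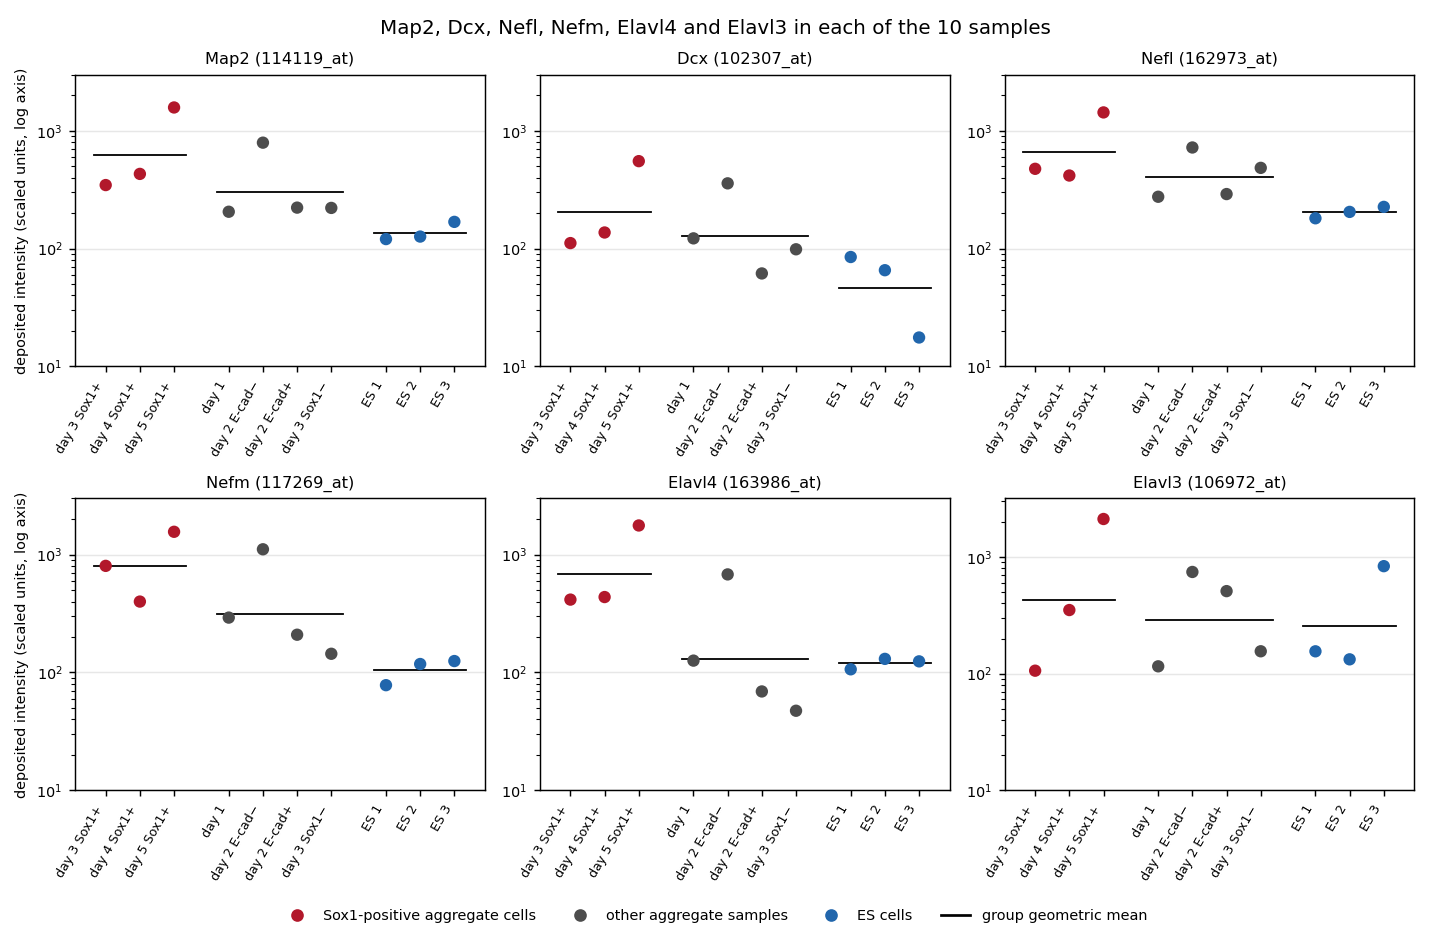
Deposited intensity (log axis, scaled units) of 1 probe set each of Map2, Dcx, Nefl, Nefm, Elavl4 and Elavl3 in the 3 Sox1-positive samples, the 4 other aggregate samples and the 3 ES samples, with each group's geometric mean as a line. Day 5 Sox1-positive cells are the highest sample in all 6 panels, and among the other aggregate samples E-cadherin-negative cells of day 2 stand highest in each.

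Elavl4, the RNA-binding protein HuD, had the widest range when each gene was taken by its brightest probe set, 4.82 on the log2 scale for 163986_at. This probe set read 415, 437 and 1769 units in Sox1-positive cells of days 3, 4 and 5, against 106.3, 130.4 and 124.2 in the ES samples. The other aggregate samples read 126.0 on day 1, 680 in E-cadherin-negative and 69.0 in E-cadherin-positive cells of day 2, and 47.3 in Sox1-negative cells of day 3. With this probe set only the E-cadherin-negative sample among them was above the ES level. The difference from ES cells was 2.37 ± 0.51 (SE, n = 3 each; adjusted p = 0.0248 in limma), and it was lost without any one ES sample or in a fit of all 3 classes together (adjusted p up to 0.0857).

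The other probe sets of Elavl4 had differences of similar size. With 137513_at it read 295, 359 and 1350 units in Sox1-positive cells of days 3, 4 and 5, against 21.9, 97.8 and 125.5 in ES cells, and the difference of 2.68 ± 0.71 did not pass (limma, adjusted p = 0.0569). With 92361_at it read 52.4, 98.9 and 377 units, against 17.0, 21.9 and 23.8, and the difference of 1.98 ± 0.55 did not pass either (limma, adjusted p = 0.0573). In all 3 probe sets the Sox1-positive and ES samples did not overlap, and the order of the Sox1-positive samples was the same. The other aggregate samples differed by probe set. With 92361_at all of them lay above the ES samples, at 26.4 to 156.4 units. With 137513_at the day 1, E-cadherin-negative and E-cadherin-positive samples lay above, at 237.5, 647 and 172.7 units. The Sox1-negative sample, at 40.95 units, lay inside the ES range.

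Elavl3, the RNA-binding protein HuC, was high on day 5 but not on day 3. With 106972_at it read 106.0, 351 and 2119 units in Sox1-positive cells of days 3, 4 and 5, and 155.4, 132.6 and 835 in the ES samples. ES sample 3 was above the day 3 and day 4 Sox1-positive samples, so the groups overlapped, and the difference of 0.71 had a 95% interval of -1.70 to 3.13. With 117004_at it read 157.5, 198.4 and 887 units in Sox1-positive cells, against 188.4, 186.3 and 196.4 in ES cells, with a difference of 0.64 ± 0.56 (SE). The weak 92239_at, not tested, had 35.2, 64.7 and 179.0 units in Sox1-positive cells and 10.5 to 14.0 in ES cells, while 138015_r_at had 469 to 899 in Sox1-positive cells and 503 to 635 in ES cells. No probe set of Elavl3 was called in this comparison.

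Mapt, which encodes tau, went the other way in part of its probe sets. With 102431_at it read 30.03, 26.0 and 117.7 units in Sox1-positive cells of days 3, 4 and 5, against 293, 285 and 243 in the ES samples, and 37.5 to 74.9 in the other aggregate samples. All 7 aggregate samples lay below all 3 ES samples. Its means of 57.9 units in Sox1-positive cells and 50.8 in the other aggregate samples lay under the filter value of 78.6 units. It was thus tested only through its ES signal, and its calls as lower lean on that filter. The difference of Sox1-positive minus ES cells was -2.18 ± 0.41 (SE, n = 3 each; adjusted p = 0.0144 in limma), lost without ES sample 2 or without day 4 (adjusted p up to 0.0638). With 102742_g_at it read 96.4 to 155.0 units in Sox1-positive cells and 222.9 to 279 in ES cells, a difference of -0.98 ± 0.22 (limma, adjusted p = 0.0265, up to 0.105 without ES sample 2, ES sample 3, day 3 or day 4). This probe set carries the suffix g, and whether its signal came from Mapt alone was not tested. Averaged over its 5 tested probe sets, Mapt was at -0.76 (limma, adjusted p = 0.0690). The samples of 116406_at did not overlap either, with 159.7 to 276.5 units in Sox1-positive and 282.1 to 321 in ES cells, but its difference of -0.55 ± 0.23 did not pass (limma, adjusted p = 0.189). Among the remaining sets, 102743_at had a difference of -0.52 ± 0.41 and 170081_at one of 0.42 ± 0.34 (SE), neither called, and 164807_at, untested, had 14.9 to 26.3 units over all samples. The probe sets of Mapt therefore disagreed in sign: 170081_at, the brightest, was above 0 and the other 4 tested were below.

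Tubb3, the neuronal beta-tubulin, and Ina, alpha-internexin, were bright in every sample, ES cells included. Tubb3 read 4351, 4396 and 7219 units in Sox1-positive cells of days 3, 4 and 5 with 160462_f_at, against 5952, 4616 and 5459 in the ES samples, a difference of -0.04 ± 0.24 (SE). With 161612_f_at it read 390, 526 and 1303 units, against 982, 455 and 482, a difference of 0.10 ± 0.46. Both probe sets carry the suffix that Affymetrix gave to sets shared by a sequence family, so signal from other tubulins was not told apart. Ina read 2503, 1344 and 1956 units in Sox1-positive cells with 169851_r_at, against 2196, 1995 and 1741 in ES cells. Its 4 probe sets had differences of -0.07 to -0.47, none called. Of these, 94334_f_at and 171599_f_at also carry the family suffix, and 94335_r_at and 169851_r_at carry the suffix r. Whether their signal came from Ina alone was not tested. Across the groups the Ina sets 94335_r_at and 94334_f_at had their lowest values in Sox1-positive cells, with 737 to 1254 and 1068 to 1635 units, against 1005 to 3037 and 1513 to 3515 in the other aggregate samples and 1088 to 1170 and 1280 to 1851 in ES cells.

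Gap43, the growth cone protein, read 243, 149.6 and 733 units in Sox1-positive cells of days 3, 4 and 5, and 134.5, 497 and 391 in the ES samples. In the other aggregate samples it read 166.6 on day 1, 526 in E-cadherin-negative and 183.0 in E-cadherin-positive cells of day 2, and 149.8 in Sox1-negative cells of day 3. The ES samples alone spanned most of this range, and the difference of 0.01 had a 95% interval of -1.39 to 1.41. Its single probe set may share sequence with another transcript, as its suffix marks.

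**Figure D2:**
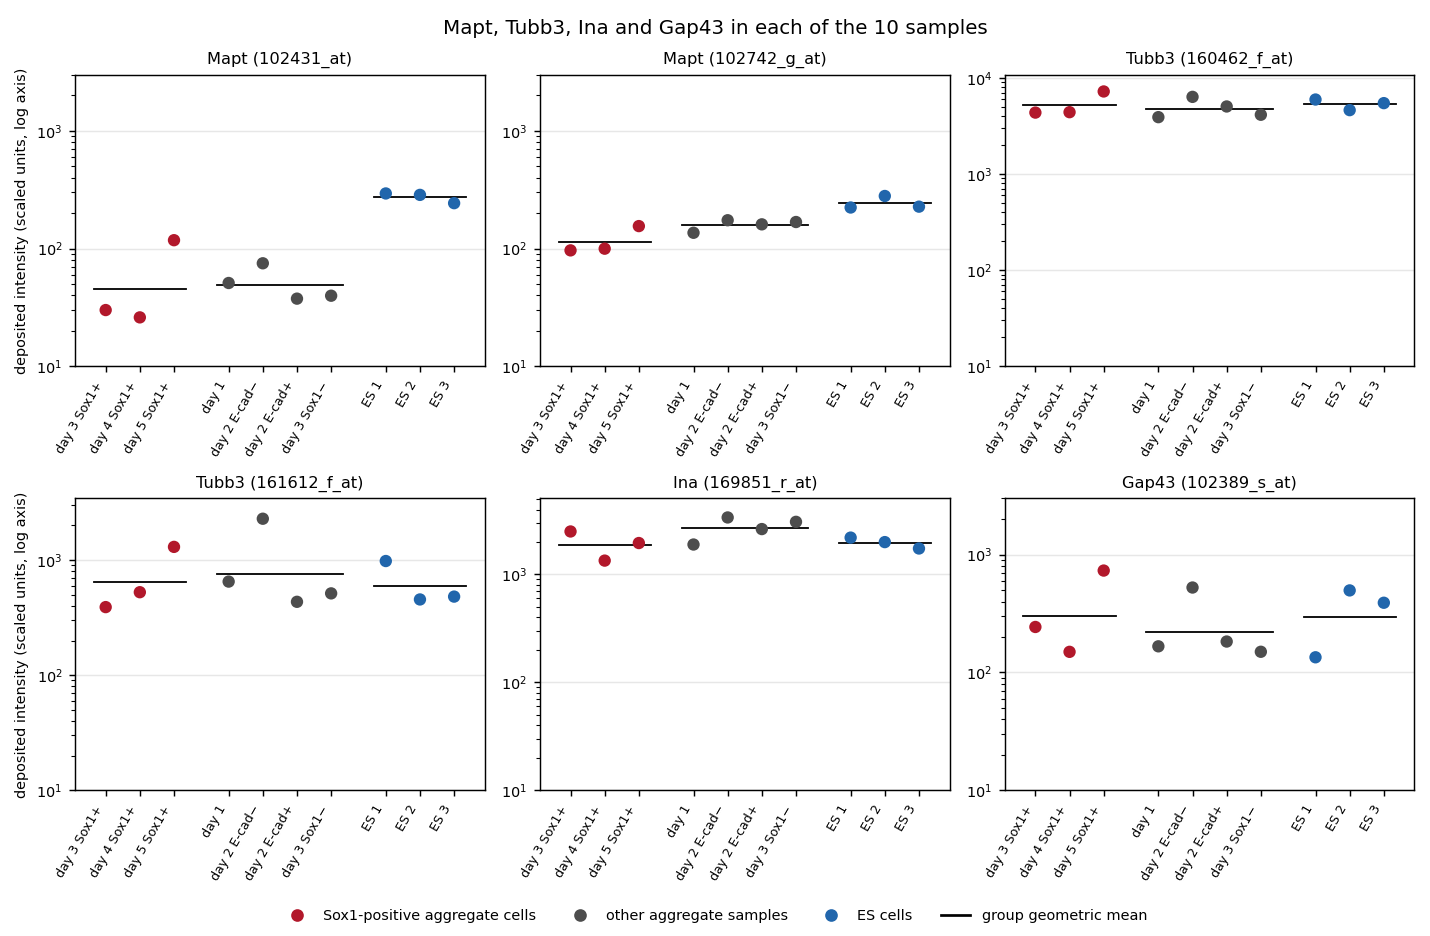
Deposited intensity (log axis, scaled units) of 2 probe sets of Mapt, 2 of Tubb3 and 1 each of Ina and Gap43 in the 3 Sox1-positive, 4 other aggregate and 3 ES samples, with group geometric means as lines. Both Mapt sets lie lower in all aggregate samples than in ES cells, whereas the Tubb3, Ina and Gap43 groups overlap.

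Against the other aggregate samples, no probe set of the 10 genes was called in Sox1-positive cells, where 0.580% of all tested probe sets were called higher and 0.864% lower. In none of the 25 did the Sox1-positive samples lie wholly above or below the other 4, against 8.99% and 9.29% of all tested probe sets. An unadjusted p under 0.05 was found for 3 of the 25, against 19.8% of all. The largest difference was that of Elavl4 163986_at, 2.21 ± 0.83 (SE, n = 3 against 4; limma, adjusted p = 0.184). Without the day 2 E-cadherin-negative sample, or without it and the other 2 samples with the highest actin ratios on the first chip, this difference was called (limma, adjusted p from 0.0192 to 0.468 over 17 alternatives). All probe sets called in this comparison numbered 371, and 2227 without the E-cadherin-negative sample. Ina 94335_r_at lay at the other end, with a difference of -1.01 ± 0.35 that was not called (limma, adjusted p = 0.157).

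The other aggregate samples were set against ES cells in turn. Only Mapt 102431_at was called, lower with a difference of -2.15 ± 0.22 (SE, n = 4 against 3; limma, adjusted p = 0.0126), against 0.0156% of all probe sets called higher and 0.0506% lower. This probe set passed the filter only through the ES samples. The call was lost without ES sample 2, without day 2 E-cadherin-positive cells and in the fit of 3 classes (adjusted p up to 0.104). Map2 114119_at and Nefl 162973_at were above ES in all 4 samples, with differences of 1.05 ± 0.44 and 0.96 ± 0.33 that did not pass (limma, adjusted p = 0.462 and 0.388). So were Nefl 103575_at, Nefm 117269_at, Elavl3 117004_at and Elavl4 92361_at, none of them called. Mapt 102431_at, 102742_g_at and 116406_at were below ES in all 4 samples. The share of all tested probe sets with no such overlap was not computed. This separation from the ES samples therefore cannot be read as particular to these genes. Sox1-positive cells and the other aggregate samples share the ES samples as their reference.

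**Figure D3:**
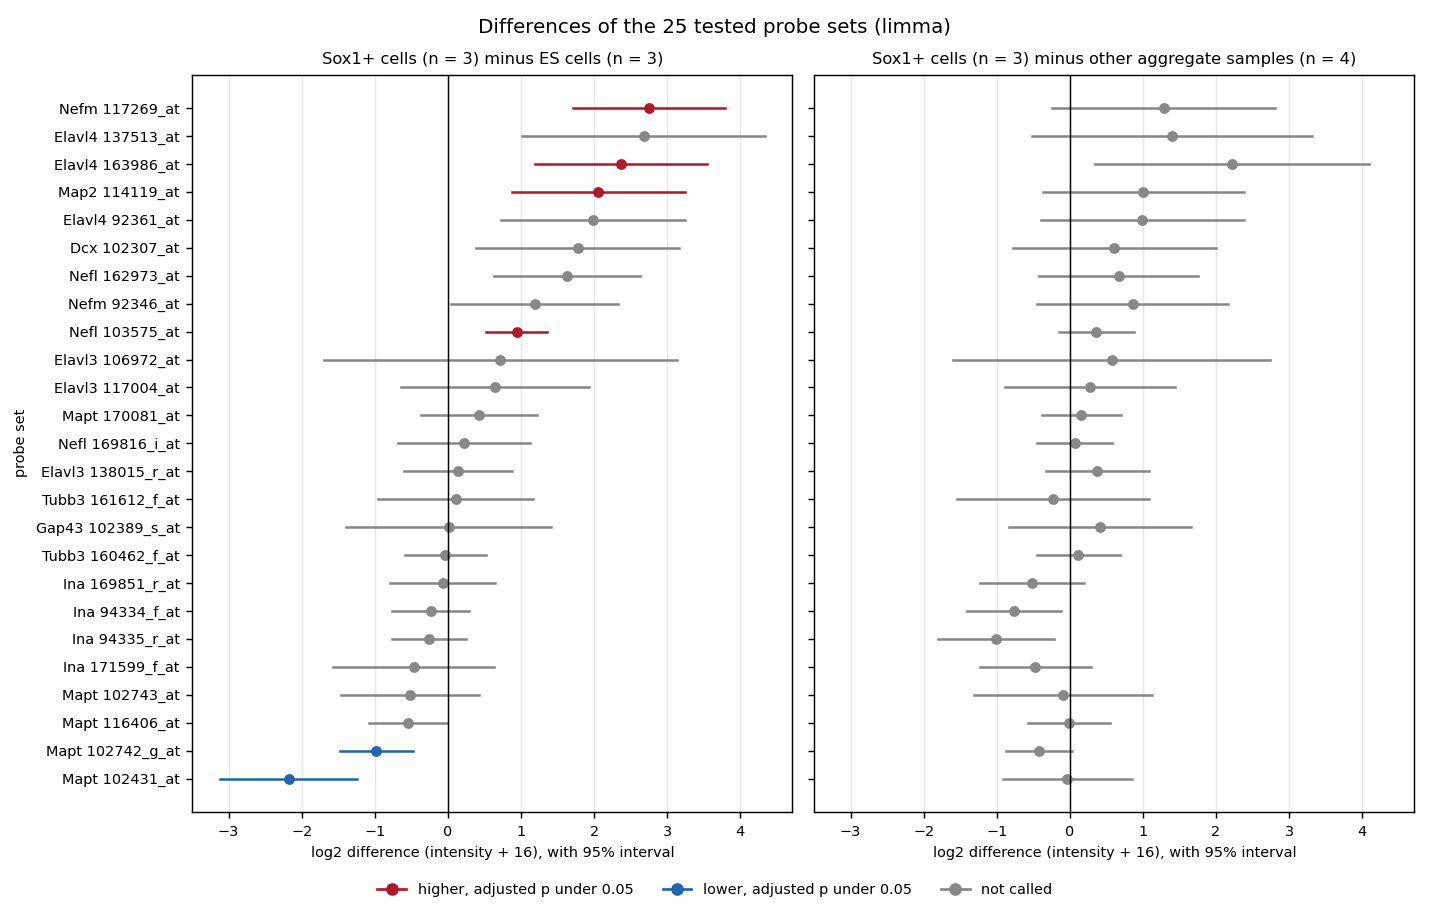
Log2 differences (intensity plus 16) of the 25 tested probe sets with 95% intervals from limma, for Sox1-positive minus ES cells on the left and Sox1-positive minus other aggregate samples on the right. On the left 4 probe sets are called higher and 2 of Mapt lower, and on the right none is called.

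Each aggregate sample was then set against the 3 ES samples alone, on the assumption that a lone sample varies as ES samples do. The spread in these fits came from the ES samples only, which may be technical repeats, so a call says that 1 sample lay outside the ES scatter and nothing of how cells of that day or sort vary. Day 5 Sox1-positive cells had 8 of the 25 probe sets called, all higher, where 4.22% of all probe sets were called. They were Elavl4 92361_at and 163986_at, Nefm 117269_at and 92346_at, Map2 114119_at, Nefl 162973_at, Dcx and Elavl3 117004_at. Of these, Elavl4 92361_at and Nefm 92346_at passed the filter only through the day 5 sample, so their calls lean on that filter. Mapt 102431_at, called below, passed it only through the ES samples. In Elavl4 163986_at the day 5 sample differed from ES cells by 3.72 ± 0.28 (SE; limma, adjusted p = 0.00548), in Map2 by 3.38 ± 0.31, in Dcx by 3.13 ± 0.59 and in Elavl3 117004_at by 2.13 ± 0.27. Day 3 Sox1-positive cells had 2 called, Nefm 117269_at higher by 2.76 ± 0.34 and Mapt 102431_at at -2.65 ± 0.27, against 1.47% of all probe sets. Day 4 Sox1-positive cells also had 2 called, Elavl4 92361_at higher by 1.64 ± 0.27 and Mapt 102431_at at -2.78 ± 0.27, against 1.87%. E-cadherin-negative cells of day 2 had 0 called, against 0.0272% of all probe sets, and day 1, E-cadherin-positive and Sox1-negative samples had 0 called, against 0% in each. Without ES sample 1 the calls among the 25 numbered 8 in E-cadherin-negative cells of day 2, 4 in Sox1-positive cells of day 3, 7 in those of day 4 and 11 in those of day 5, where the shares of all probe sets called also grew, to 1.84%, 5.06%, 5.53% and 7.75%. Without ES sample 2 they numbered 0 on days 3 and 4, against 0% of all, and 5 on day 5, against 0.849%.

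A slope per day among the Sox1-positive samples was fitted as well, with the ES samples in the fit, so that its error drew on their scatter too. Over all probe sets 0 passed the threshold in limma in either direction (0% of those tested), 2105 had an unadjusted p under 0.05, and the lowest adjusted p was 0.178, which was that of Elavl4 92361_at. Among the 25 probe sets 11 had an unadjusted p under 0.05, against 8.19% of all. The slope of Elavl4 92361_at was 1.26 ± 0.18 per day on the log2 scale, that of Elavl3 106972_at 2.06 ± 0.56, that of Elavl3 117004_at 1.19 ± 0.25 and that of Map2 114119_at 1.07 ± 0.24 (SE). Elavl4 92361_at passed the filter only through the day 5 sample, so its place in this ranking leans on that filter. Each day was 1 sample, and without day 5 the difference of Sox1-positive from ES cells was -0.40 for Elavl3 106972_at and -0.10 for 117004_at.

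Day 5 Sox1-positive cells and E-cadherin-negative cells of day 2 recurred at the top. Of the 25 probe sets 13 were highest in the day 5 sample and 4 in the E-cadherin-negative sample, against 14.2% and 10.0% of all tested probe sets. In 11 these were the 2 highest samples, against 3.31%. Elavl4 92361_at and Nefm 92346_at, counted among the 13 and the 11, passed the filter only through the day 5 sample. The day 5 and E-cadherin-negative samples also had higher ratios of 3′ to 5′ actin signal than most samples on the first chip, 1.34 and 1.33. ES sample 3 had 1.70 and the other 7 had 0.939 to 1.15. With these 3 samples left out, an alternative chosen after seeing the data, 3 probe sets were called higher and 2 lower in Sox1-positive against ES cells, and Nefl 103575_at was no longer called (limma, adjusted p = 0.109). In the same 2 samples the sum of 6 neural crest markers was 11992 and 5099 units, against 4634 and 6480 in the other Sox1-positive samples, 3190 to 4325 in the other 3 aggregate samples and 2792 to 3347 in ES cells. The sum of 6 ES cell markers was 1486 and 8315 units in the day 5 and E-cadherin-negative samples, against 5918 and 6740 in the other Sox1-positive samples, 21855 to 25482 in the other 3 aggregate samples and 31068 to 40300 in ES cells. The sum of 6 endoderm markers was 2043 units on day 5 and 805 in E-cadherin-negative cells, against 611 to 1118 in the other 8 samples. No marker of the neural crest, ES cell and endoderm lists lay under the filter. The sum of 6 fibroblast or feeder markers was 1697 units on day 5 and 2723 in E-cadherin-negative cells. It was 1295 to 2553 in the other 8 samples, and its markers Col3a1 and Postn lay under the filter. The sums of mesoderm and of astrocyte and oligodendrocyte markers were highest in day 1 aggregates. The part of all these sums in the results was not tested.

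The 2 sorts, of 1 sample against 1, had no replicates and are given as differences with no test. On day 2, E-cadherin-negative cells exceeded E-cadherin-positive cells by 1 or more on the log2 scale in 10 of the 25 probe sets and fell below by as much in 0, against 7.71% and 5.85% of all tested probe sets. The 10 were all 3 of Elavl4 (3.03, 1.81 and 1.39), Tubb3 161612_f_at (2.36), Nefm 117269_at (2.32), Dcx (2.27), Mapt 102743_at (2.13), Map2 114119_at (1.76), Gap43 (1.45) and Nefl 162973_at (1.27). The ES samples alone spanned more than the difference in Gap43 (1.77) and in Elavl4 137513_at (1.90 against 1.81). On the first chip the actin ratio was 1.33 in E-cadherin-negative and 1.12 in E-cadherin-positive cells, and its part was not tested. In all, 24 of the 25 were above 0, against 52.1%, and the median was 0.70, against 0.03 over all tested probe sets. The sum of ES cell markers moved with this sort, at 8315 units in E-cadherin-negative against 25482 in E-cadherin-positive cells, and its part in these differences was not tested. Tubb3 161612_f_at read 2289 units in E-cadherin-negative against 434 in E-cadherin-positive cells, and this was its highest value in any sample.

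On day 3, Sox1-positive cells exceeded Sox1-negative cells by 1 or more in 3 probe sets and fell below by as much in 1, against 7.60% and 7.77% of all tested probe sets. Elavl4 163986_at read 415 against 47.3 units, a difference of 2.77, Elavl4 137513_at 295 against 41.0 units, a difference of 2.45, and Nefm 117269_at 803 against 144 units, a difference of 2.36. The 1 lower was Ina 171599_f_at, at -1.07. In all, 12 of the 25 were above 0, against 47.9%, and the median of -0.03 equalled that over all probe sets. Map2, Dcx and Nefl 162973_at differed by 0.61, 0.15 and -0.03. Elavl4 163986_at and 137513_at and Nefm 117269_at thus reached 1 in both sorts. The share of all tested probe sets that reached 1 in both was not computed, so this overlap cannot be read as particular to these genes. Elavl4 and Nefm did not reach 1 in both sorts in every tested probe set. Elavl4 92361_at differed by 0.69 on day 3, and Nefm 92346_at by 0.90 on day 2 and 0.86 on day 3. The ES samples alone spanned 1.90 on the log2 scale in Elavl4 137513_at.

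**Figure D4:**
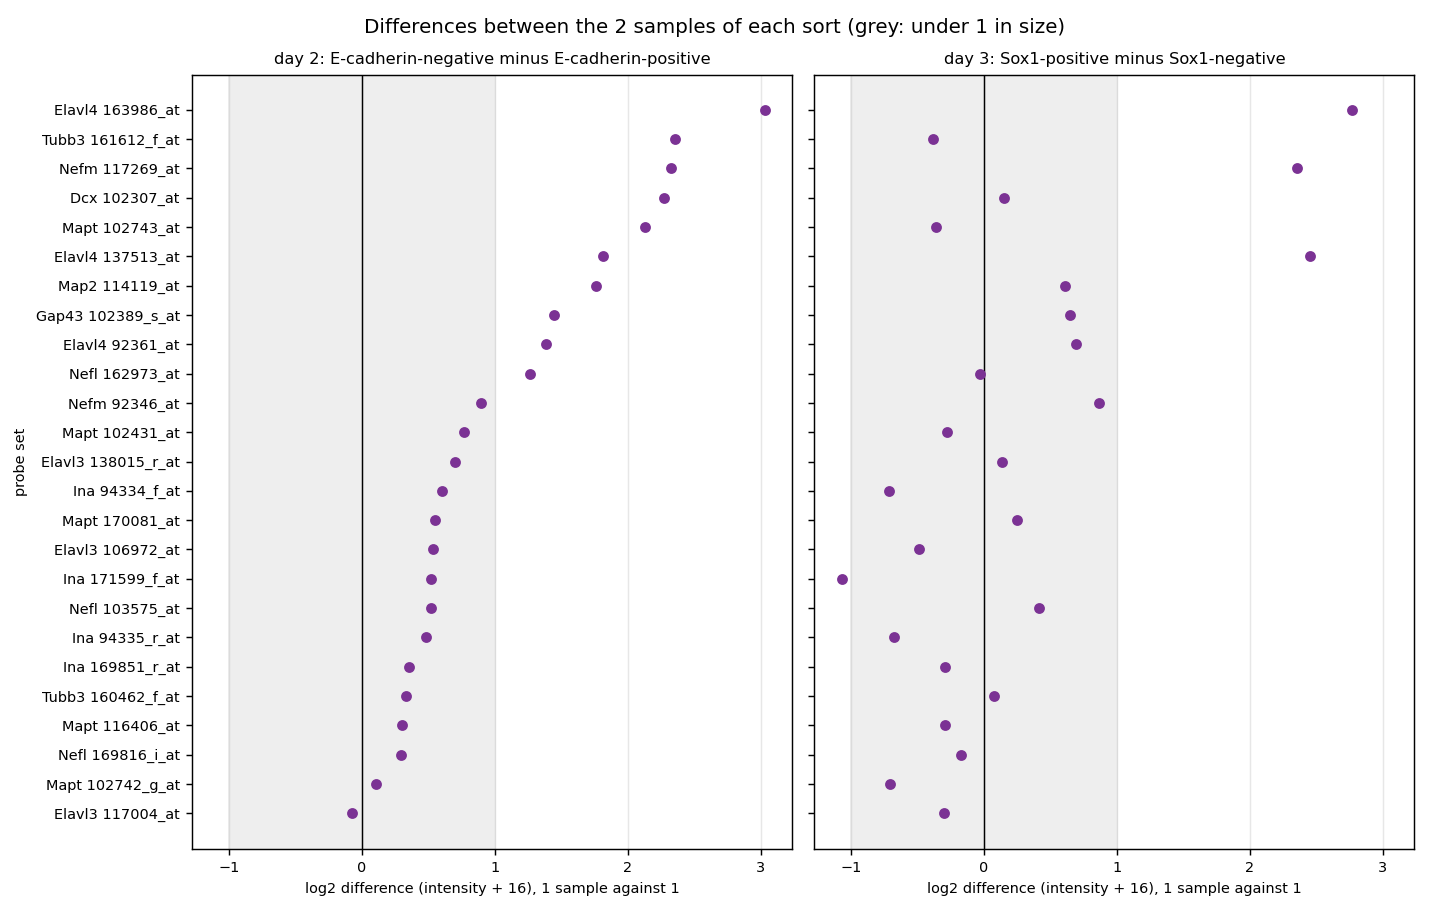
Log2 differences of the 25 tested probe sets between the 2 samples of the day 2 sort (left) and of the day 3 sort (right), 1 sample against 1, with grey marking differences under 1 in size. In the day 2 sort, 24 of 25 are above 0 and 10 reach 1, and in the day 3 sort, 3 reach 1.

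The members' profiles across the 10 samples were compared by Pearson's r of log2 values, as a description with no test, since the points share arrays. Map2 114119_at had an r of 0.98 with Elavl4 92361_at, 0.96 with Nefl 162973_at, 0.93 with Nefm 117269_at and 0.87 with Dcx. Over the 8 samples without day 5 Sox1-positive and day 2 E-cadherin-negative cells these were 0.92, 0.85, 0.87 and 0.50. Ina 94335_r_at had an r of -0.04 with Map2. Mapt 102431_at and 116406_at had an r of 0.87 with each other, and 102431_at and 170081_at one of -0.40.

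For the 4 genes of widest range by their brightest probe set, the 3 other genes of most similar profile were named by the highest r over the 10 samples among all named genes. Elavl4 163986_at was nearest to Nova2 (0.98), an RNA-binding protein of neurons, Gpm6b (0.97), a membrane protein of neurons and glia, and Tmem218 (0.97). Map2 114119_at was nearest to Btbd17 (0.98), Tmem98 (0.97) and Gucd1 (0.97), and Nefm 117269_at to Saraf (0.97), Fgfbp3 (0.97) and Rtn1 (0.97), a reticulon of neurons. Dcx was nearest to Mxra8 (0.94), D930028M14Rik (0.94) and Sstr2 (0.93), a somatostatin receptor.

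Other genes of the same processes were taken from 7 lists, with 1 probe set per gene, in Sox1-positive against ES cells. Of all 12934 genes tested in this way 6.40% were called higher and 6.17% lower, with a median difference of -0.01. The 10 genes themselves, each by its brightest probe set, had 3 higher (Elavl4, Map2 and Nefm) and 0 lower, with a median of 1.02. Of 11 other intermediate filament genes 1 was higher and 2 were lower, with a median of -0.58: Nes, the filament of neural progenitors, rose by 1.18, while the heavy neurofilament subunit Nefh was at -1.90 ± 0.29 and lamin A/C (Lmna) at -1.82 ± 0.40 (SE; limma, adjusted p = 0.00667 and 0.0261). Nefh read 217, 177 and 120 units in Sox1-positive cells of days 3, 4 and 5, against 976, 554 and 541 in ES cells, so the heavy subunit was lower where Nefm was higher.

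Of 13 other tubulins 1 was higher and 1 lower, with a median of 0.18: Tubb4a, a beta-tubulin of the brain, by 1.99 ± 0.37 and Tuba4a by -1.43 ± 0.19 (limma, adjusted p = 0.0141 and 0.00389). Of 37 other microtubule-binding genes 4 were higher and 1 lower, with a median of 0.40. Dpysl4 and Dpysl5, of the collapsin response mediator family of axon guidance, rose by 3.46 ± 0.39 and 3.05 ± 0.34, and Map7 was at -1.01 ± 0.22 (limma, adjusted p = 0.00191, 0.00198 and 0.0238). Dpysl5 read 3567, 2885 and 5315 units in Sox1-positive cells, against 291, 466 and 638 in ES cells. Of 19 growth cone and axon genes 5 were higher and 0 lower, with a median of 0.08, led by the adhesion molecule Nrcam (3.76 ± 0.20) and the actin-binding Marcks (3.26 ± 0.47; limma, adjusted p = 0.000119 and 0.00513).

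Of 21 other RNA-binding genes 3 were higher and 0 lower, with a median of 0.24. Msi1, a marker of neural progenitors, rose by 2.36 ± 0.21 and Ptbp2, a splicing regulator of developing neurons, by 2.23 ± 0.22 (limma, adjusted p = 0.000902 and 0.00111). The Elavl relatives Elavl1 and Elavl2 had differences of 0.25 ± 0.17 and 0.01 ± 0.24 and were not called. Of 15 synaptic vesicle genes 0 were called, with a median of 0.24. Of 23 neurogenesis factors and REST complex genes 0 were higher and 2 lower, with a median of 0.29: Rest, the repressor of neuronal genes outside neurons, was at -2.07 ± 0.25 and Atoh1 at -1.98 ± 0.48 (limma, adjusted p = 0.00298 and 0.0441). In day 5 Sox1-positive cells alone against ES cells, where 2.33% of all genes were called higher and 2.81% lower, 5 of these 23 were higher. They were Neurog1, Neurod4, Nhlh2, Ebf2 and Myt1, named after their values were seen, and Myt1 read 812 units on day 5 against 21.8 to 48.3 in ES cells. Over the 10 genes the same day 5 comparison called 5 higher and 0 lower, with a median of 1.99.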

How the data were processed

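Expression was measured in 10 samples on 3 chips each. Per the deposited tables, values were linear intensities, 1 per probe set and array, which the authors had already scaled: the 2% trimmed mean of every array lay near 500 (500.1 to 500.3). How the scanner signals were summarised and corrected is not given in the sources used here. Of the probe sets other than controls, 29131 named a single gene, while 724 named several and 6846 had no name in the platform's annotation, and symbols were updated by Entrez ID to RefSeq. Array medians lay between 176.3 and 202.0 units on the first chip, 230.9 and 277.4 on the second and 194.8 and 220.4 on the third. Precision is limited by how few arrays there are.

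The filter kept probe sets with a mean of at least the 30th percentile of the chip (78.6, 117.2 and 101.9 units). Differences were fitted on log2(intensity + 16) with limma 3.58.1 (lmFit and eBayes, R 4.3.3) per chip, and p-values were Benjamini-Hochberg adjusted over the 3 chips together. Each fit held only the groups compared, save the slope on day, which also held the ES samples, and the lone-sample contrasts, which used all 10 samples. The fit was also run on simulated data with known changes and independent noise of the ES spread. That setting lacks the differences in day and sort within groups, so it says nothing of the calls made here. A gene is represented by its probe set of highest mean. The 10 genes and the gene lists were chosen with earlier results of these data known, so their counts are descriptions and no list was tested. All members are named with all their probe sets, and from each list the 2 largest rises and falls among called genes. For the 4 members of widest range the 3 most similar genes are named. Alternatives covered normalization (quantile, 75th percentile), pseudocounts of 1 and 64, no filter and the 60th percentile, leaving out each array, the mean-variance trend, adjustment per chip and other designs.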

Additional observations from a re-analysis of the deposited data

Results flagged for a closer look

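The 25 tested probe sets were screened for 1 of the 4 other aggregate samples standing far from the rest. The rule was a gap over range on the log2 scale that chance exceeds in about 1 of 20 groups of 4. At that rate some of the 25 could pass by chance, and the share of all tested probe sets that pass was not computed. The rule flagged 2 probe sets. In both it was the E-cadherin-negative sample of day 2 that stood high. For Map2 114119_at the gap was 0.942 of the range, with 792 units in that sample against 205 to 222 in the other 3. For Gap43 102389_s_at it was 0.846 of the range, with 526 units against 149.8 to 183.0. On the first chip, which carried the Gap43 set, the same sample had an actin ratio of 1.33, which 7 of the 10 samples lay below. On the second, which carried the Map2 set, its ratio was 1.331, against 1.33 in day 5 Sox1-positive cells. On the third it was 1.231, below the 1.251 of ES sample 2. The part of RNA quality in these values was not tested.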

How the results depend on the processing

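Of 292 recomputed counts 224 stayed within 1.5 times their value in the report. Of 759 recomputed log2 differences 671 kept sign and side of the threshold or moved by less than 1 SD, and where a cause is not named here, the cause was not tested. For Sox1-positive against ES cells, members called higher numbered 8 with the slope on day as a covariate, against 4, and 1 to 6 with 1 array left out (1 without ES sample 3). Members called lower numbered 0 with the filter at the 60th percentile, which removed both Mapt probe sets from the test, against 2, and 0 to 2 with 1 array left out (0 without ES sample 2 or day 4). All probe sets called numbered 1055 without the 3 samples of highest actin ratio on the first chip and 1233 to 2162 with 1 array left out, against 2710.

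For Sox1-positive against the other aggregate samples, 1 member was called without the 3 samples of highest actin ratio on the first chip and 0 to 1 with 1 array left out, against 0. All probe sets called, 371 in the report, numbered 201 and 694 with pseudocounts of 1 and 64, 131 without a filter, 679 with the filter at the 60th percentile, 790 with the trend, 596 with adjustment per chip, 1131 in the fit of 3 classes, 1212 without the 3 samples and 4 to 2227 with any 1 of the 7 arrays left out (2227 without day 2 E-cadherin-negative, and fewer than 371 without any other). For the other aggregate samples against ES cells, members called lower numbered 0 with the filter at the 60th percentile and in the fit of 3 classes, and 0 to 1 with 1 array left out, against 1. All probe sets called there, 17 in the report, numbered 10 with quantile normalization, 28 with a pseudocount of 64, 10 without a filter, 26 with the filter at the 60th percentile, 28 with the trend, 8 without the 3 samples and 5 to 20 with 1 array left out. For the slope, 2 probe sets were called with a pseudocount of 64 and 0 to 1 with 1 array left out, against 0.

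Among lone samples against ES cells, members called with 1 ES array left out numbered 0 to 1 for day 1, 0 to 8 for day 2 E-cadherin-negative, 0 to 2 for day 2 E-cadherin-positive, 0 to 1 for day 3 Sox1-negative, 0 to 4 for day 3 Sox1-positive, 0 to 7 for day 4 and 5 to 11 for day 5. Day 2 E-cadherin-negative cells had 3 with a pseudocount of 64, 5 with the filter at the 60th percentile, 3 with the trend and 1 with adjustment per chip. Day 3 Sox1-positive cells had 0 without a filter, day 4 had 1 with quantile normalization, without a filter or with the trend, and day 5 had 5 with the filter at the 60th percentile. With a difference of 2 or more counted, day 2 had 5 higher and day 3 had 0 lower.

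Signs turned only for values that were not called. Gap43 was at -0.036 with quantile normalization, -0.019 with scaling to the 75th percentile, -0.42 without the 3 samples, and -0.61 to 0.48 with 1 array left out. Tubb3 160462_f_at was at 0.020 with quantile normalization and -0.28 to 0.084 with 1 array left out, and 161612_f_at at -0.55 without the 3 samples and -0.39 to 0.46. Without the 3 samples Elavl3 117004_at was at -0.077, Elavl3 138015_r_at at -0.038 and Nefl 169816_i_at at -0.13. With 1 array left out Elavl3 106972_at ranged from -0.40 to 1.67, 117004_at from -0.098 to 1.09, 138015_r_at from -0.13 to 0.33, Nefl 169816_i_at from -0.024 to 0.61 and Ina 169851_r_at from -0.28 to 0.17. As the mean of its tested probe sets Mapt was at -0.76 and Tubb3 at 0.032. No paired analysis was possible because every aggregate group is 1 sample and no label ties its number to an ES sample. By Spearman's rho 3 of the 12 most similar genes stayed among the first 3. Each aggregate sample is alone in its sort and day, which limits every comparison.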
